A study of Mus musculus with 14 samples.

Results

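A dividing cell loads the MCM helicase onto replication origins, makes deoxynucleotides and copies its DNA in S phase, then condenses its chromosomes, builds a spindle and splits in mitosis. The genes for these steps are transcribed in waves: E2F factors drive the S phase genes, and the MuvB complexes with B-Myb and FoxM1 drive the mitotic genes, so transcripts of this kind are widely read as a sign of cycling cells. In adult lung most stromal cells are quiescent, and injury is a setting in which some re-enter the cycle. The 45 genes described here are 18 of S phase and DNA replication and 27 of mitosis, chosen by name. Every array probe under one of these symbols was taken, and a probe was kept where its signal was above the negative controls (detection p under 0.05) on at least 2 of the 14 arrays. Of 88 such probes on the platform 52 were kept, for 34 genes, among 20162 kept probes and 12444 genes in the whole series.

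RNA came from 3 populations sorted from the lungs of Foxd1-Cre;Rosa26-tdTomato;Coll-GFP mice, which all groups share. Cre under the Foxd1 promoter switches on tdTomato for life in cells that once expressed Foxd1, and the Coll-GFP transgene reports collagen expression at the time of the sort. Peri cells were FoxD1-derived and GFP-negative, PeriFibro cells were FoxD1-derived and GFP-positive, and Fibro cells were GFP-positive without the FoxD1 lineage mark. Mice received bleomycin, a DNA-breaking drug used to injure the lung, at 0.8 U/kg into the trachea, or saline (uninjured), and lungs were taken on day 7. Bleomycin groups held 2 Peri, 3 PeriFibro and 3 Fibro arrays, and each uninjured group held 2. All bleomycin arrays are labelled male and all uninjured arrays female, so injury and sex cannot be told apart here. The labels do not say that arrays of a group came from separate mice, so p-values measure only the spread between these samples.

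Between 39.4% and 44.4% of probes were detected per array. The second uninjured Peri array was the dimmest before normalization (95th percentile of signal 430.4, against 794.1 to 1719 on the other arrays) and detected 27 of the 34 genes. Markers did not all follow the sort names. The mean log2 level of 10 pan-leukocyte genes was 11.64 to 12.07 on the Peri arrays, 8.38 to 9.87 on PeriFibro and 10.51 to 11.50 on Fibro arrays. The defining leukocyte gene Ptprc, alone of the 10, was not above background on any PeriFibro array. The pericyte marker Rgs5, alone of 9 tested pericyte genes, was not above background on any Peri array. The mean level of the 9 was 5.15 to 6.06 on Peri, 6.63 to 7.73 on PeriFibro and 6.19 to 6.64 on Fibro arrays. For 10 endothelial genes it was 7.81 to 9.48, 11.58 to 12.54 and 10.51 to 11.81 on the same arrays. In sorted bulk RNA, fewer cycling cells and less of a transcript per cell cannot be told apart.

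A smaller share of the mitotic than of the S phase genes was kept, but genes differed in their number of probes and 2 had none. By probe, 52 of 88 were kept, where 20162 of 34885 probes with 1 symbol were kept in the whole series. Among S phase and replication genes 17 of 18 were kept. Only Ccne2, which encodes a cyclin that activates CDK2 at S phase entry, was missing, seen on 1 array (the second Fibro bleomycin array). Among mitotic genes 17 of 27 were kept. Ccnb2 and Ccna2 (mitotic cyclins), Bub1 and Ttk (spindle checkpoint kinases), Kif20a and Racgap1 (cytokinesis), Cks2 (a CDK-binding subunit) and Hmmr (a spindle-associated protein) were measured by probes that passed on 0 arrays, and Mki67, which encodes the proliferation antigen Ki-67, and Ccnb1, which encodes cyclin B1, had no probe under their symbol in the annotation used. Of the 34 kept genes 22 were detected on all 14 arrays. Tpx2 (4 arrays), Ube2c (2) and Ect2 (2) were at background nearly everywhere and could show little in any comparison.

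The promoters of these genes carry the elements that the E2F and MuvB systems are known to read, which the choice by name did not use. In the 300-base RefSeq windows (GRCm38.p6, 250 bases before to 50 after the transcript start, both strands searched, matches allowed to overlap) the 6-letter CHR element TTTGAA was present in 19 of 25 windows of mitotic genes (76%), in 2 of 16 windows of replication genes (12.5%) and in 17.9% of all 32851 windows. The CCAAT box, letters CCAAT, was present in 88%, 68.8% and 37.4% of the same sets. An E2F match, spelled TTCGCGC or else TTGGCGC or else TTCCCGC or else TTGCCGC, was present in 24% of mitotic, 56.2% of replication and 9.57% of all windows. CHR and CCAAT stood together in 76% of mitotic windows, 12.5% of replication windows and 6.95% of all windows. The windows covered 38 of the 45 genes, and a match is a description of letters, not a measured binding site. The sequences of the called genes with a window are shown because they hold these layouts. Upstream stretches are given 5′ to 3′ up to the annotated gene, with CCAAT in capitals on either strand (ATTGG when it reads on the other strand).
Cenpa upstream (chr5:30666636-30666876, + strand): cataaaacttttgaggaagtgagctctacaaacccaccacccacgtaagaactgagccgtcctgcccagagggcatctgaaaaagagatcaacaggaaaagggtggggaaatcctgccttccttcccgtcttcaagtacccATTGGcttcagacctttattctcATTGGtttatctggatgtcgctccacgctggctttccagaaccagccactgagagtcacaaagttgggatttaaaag
Bub1b upstream (chr2:118597961-118598201, + strand): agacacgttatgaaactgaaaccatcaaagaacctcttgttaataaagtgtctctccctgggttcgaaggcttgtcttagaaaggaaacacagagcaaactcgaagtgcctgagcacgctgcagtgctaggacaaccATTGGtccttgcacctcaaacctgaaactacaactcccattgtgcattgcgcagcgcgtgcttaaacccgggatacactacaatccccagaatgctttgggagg
Plk1 upstream (chr7:122159185-122159434, + strand): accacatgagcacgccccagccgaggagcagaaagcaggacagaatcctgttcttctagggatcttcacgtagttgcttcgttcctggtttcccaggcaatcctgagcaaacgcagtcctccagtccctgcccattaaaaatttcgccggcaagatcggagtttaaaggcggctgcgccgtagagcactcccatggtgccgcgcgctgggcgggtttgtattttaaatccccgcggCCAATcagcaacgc
In all 3 mitotic genes the CHR letters lay just after the start, beginning at base 17 in Cenpa, base 41 in Bub1b and base 31 in Plk1. These short sites are given with the element in capitals, beside an E2F match of the replication gene Mcm7 that reads on the other strand. The Mcm7 match begins 165 bases before the transcript start used but lies inside the annotated gene. Further E2F matches begin at bases 18 and 21 after that start.
Cenpa CHR site (chr5:30666892-30666915, + strand): cgggtgatttTTTGAActgctggc
Bub1b CHR site (chr2:118598237-118598260, + strand): caagagacgttaaaTTTGAAactt
Plk1 CHR site (chr7:122159455-122159478, + strand): cagcgccgcgTTTGAAttcgggga
Mcm7 E2F site (chr5:138172035-138172058, - strand): atttcgaaccGCGGGAAacagggt

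Between the 3 uninjured populations few of these genes passed the test, although many others did. A gene was called where limma's moderated test gave a Benjamini-Hochberg adjusted p under 0.05 over all 12444 genes and the fold change was at least 2. Against PeriFibro, uninjured Peri cells had 1 of 34 genes called, where 24.8% of all genes were called, 10.2% higher and 14.6% lower. That gene was Cenpa, which encodes the histone H3 variant that marks centromeres. Cenpa had log2 levels of 11.97 and 11.57 on the uninjured Peri arrays, against 9.33 and 9.41 on the PeriFibro arrays. Both Peri arrays lay well above both PeriFibro arrays, a log2 difference of 2.40 ± 0.49 (SE, n = 2 each), or 5.28-fold (adjusted p = 0.00303, limma). The call held under all 13 alternatives and without any single array. Among the 13 is adjusted p alone, under which a call cannot be lost. The second Cenpa probe, which was dimmer, differed by 0.50 ± 0.39 (adjusted p = 0.435 in limma's fit over single probes), so the size rested on the brighter probe.

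Against Fibro cells, uninjured Peri cells had 3 genes called higher and 1 lower, where 21.7% of all genes were called, 8.88% higher and 12.8% lower. Cenpa on the uninjured Fibro arrays was at 9.70 and 10.88, so the difference was 1.48 ± 0.49 (adjusted p = 0.0476, limma). Mcm4, a subunit of the replicative helicase, had log2 levels of 10.62 and 9.999 in Peri and 9.57 and 8.89 in Fibro cells. Mcm7, another subunit, was at 7.38 and 7.40 in Peri and 6.61 and 6.06 in Fibro cells. These helicase subunits were about 2-fold higher in Peri cells, by 1.08 ± 0.34 for Mcm4 (adjusted p = 0.0402, limma) and 1.05 ± 0.29 for Mcm7 (adjusted p = 0.0213, limma). Mcm5 (0.98, adjusted p = 0.0294) and Mcm6 (0.97, adjusted p = 0.0492) passed limma's adjusted p in the same direction but stayed under 2-fold. Bub1b, which encodes the checkpoint protein BubR1, ran the other way, at 6.88 and 6.05 in Peri and 7.65 and 7.55 in Fibro cells. Its difference was -1.13 ± 0.36 (adjusted p = 0.0385, limma), and the Peri arrays also lay well apart from each other. Of the 4 calls none held under every alternative. Of the 14 fits that each left out a single array, the call was lost in 9 for Cenpa, 9 for Mcm4, 4 for Bub1b and 3 for Mcm7, and the differences ranged from 0.89 to 2.07, 0.74 to 1.42, -1.55 to -0.72 and 0.78 to 1.32. Leaving out the 3 arrays that stood apart (below) keeps 1 uninjured Fibro array. The differences were then 2.07 for Cenpa, 0.74 for Mcm4, 0.78 for Mcm7 and -1.19 for Bub1b. The second Mcm7 probe differed by 0.22 and the second Bub1b probe by -0.34, neither called.

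**Figure D1:**
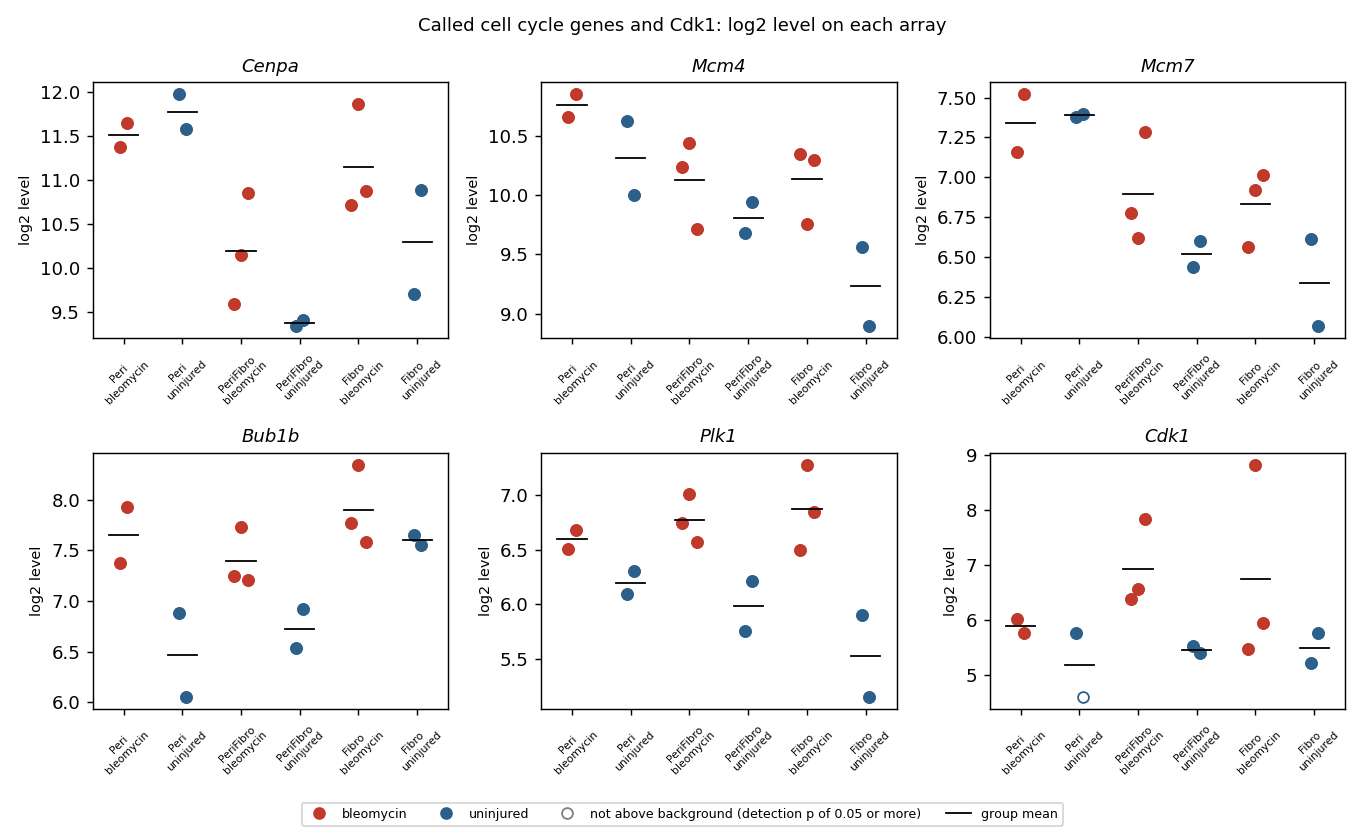
Log2 level (vertical axes, each with its own range) of the 5 called genes and Cdk1 on each array, by population and injury; filled points were above background, open points were not, and lines are group means. Cenpa is at 11.37 or more on every Peri array, and Bub1b is lowest on the uninjured Peri and PeriFibro arrays.

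Between uninjured PeriFibro and Fibro cells none of the 34 genes was called by limma, where 2.35% of all genes were called. At an unadjusted p under 0.05, limma gave 6 of the 34 in that pair, 9 in Peri against Fibro and 4 in Peri against PeriFibro. The background was 15.9%, 35.6% and 36.4% of all genes. The median log2 difference of the 34 genes was 0.21 for Peri against PeriFibro, 0.35 for Peri against Fibro and 0.19 for PeriFibro against Fibro. Over all genes these medians were -0.05, -0.03 and 0.06. The medians of the 34 moved with single arrays: without the first uninjured Peri array they were -0.13 against PeriFibro and 0.07 against Fibro cells, and they reached 0.42 without the second uninjured PeriFibro array and 0.62 without the second uninjured Peri array. The marker genes of other cell types moved with the same pairs: all 10 pan-leukocyte genes were called higher in uninjured Peri than PeriFibro cells, as were the tested markers of lymphocytes (7 of 7 for T and NK cells, 5 of 6 for B cells) and of neutrophils (9 of 9), while 9 of 10 endothelial and 6 of 9 pericyte genes were called lower. Against Fibro cells fewer leukocyte markers were called higher (5 of 10 on the pan-leukocyte list, 6 of 9 for neutrophils), with the lymphocyte counts the same, while 8 of 9 alveolar epithelial and 8 of 10 endothelial genes were called lower, and of 10 macrophage genes 1 higher and 5 lower. The part of these cells in the levels of Cenpa and the Mcm genes was not tested.

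On day 7 after bleomycin no gene of the 34 was called in any pair of populations, where 20.9% (Peri against PeriFibro), 7.53% (Peri against Fibro) and 6.09% (PeriFibro against Fibro) of all genes were. At an unadjusted p under 0.05, limma gave 2, 0 and 1 of the 34, against 34.3%, 23.7% and 21.2% of all genes. Cenpa remained the nearest to a call: 11.37 and 11.65 in bleomycin Peri cells, against 9.59, 10.15 and 10.84 in PeriFibro cells. The groups did not overlap, and the difference of 1.32 ± 0.45 had an adjusted p of 0.0532 in limma. It passed under 5 alternatives, among them the one without the 3 arrays that stood apart. The median differences of the 34 genes were close to 0 in all pairs, at 0.03, -0.13 and -0.06, and those against Fibro cells turned to 0.16 and 0.12 without the second Fibro bleomycin array.

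After bleomycin the mean level of most of these genes lay above the uninjured mean in every population, although only 1 gene passed the test in 1 population. In Peri cells 30 of 34 log2 differences were positive, with a median of 0.38, in PeriFibro 31 with a median of 0.53, and in Fibro 32 with a median of 0.83. The Peri median was 0.12 without the second uninjured Peri array, the dimmest, and 0.58 without the first, and leaving out single arrays gave 0.41 to 0.78 in PeriFibro cells and 0.48 to 0.99 in Fibro cells. Over all genes the medians were 0.03, -0.03 and -0.03, and 54.1%, 46.2% and 47.0% of genes were positive. In all 3 populations at once 27 of the 34 were positive and 0 were negative, where 17% of all genes were positive and 17.1% negative throughout. These 3 comparisons share no arrays, but they share the split of injury by sex and a joint normalization. The labels do not say whether the 3 populations were sorted from the same mice. The exceptions were Pcna and Ube2c, positive in 1 population, and Ccne1, Cenpa, Ect2, Kif11 and Mcm7, positive in 2. Tpx2 is among the 27 but was detected only on 3 PeriFibro and 1 Fibro bleomycin arrays. It passed the detection filter only through bleomycin arrays, so its positive signs carry little. The count was 27 without the 3 arrays that stood apart, ranged from 20 (without the second uninjured Peri array) to 29 when single arrays were left out, and was 26 of 34 with arrays scaled to a common median and 27 with the authors' own normalized values.

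**Figure D2:**
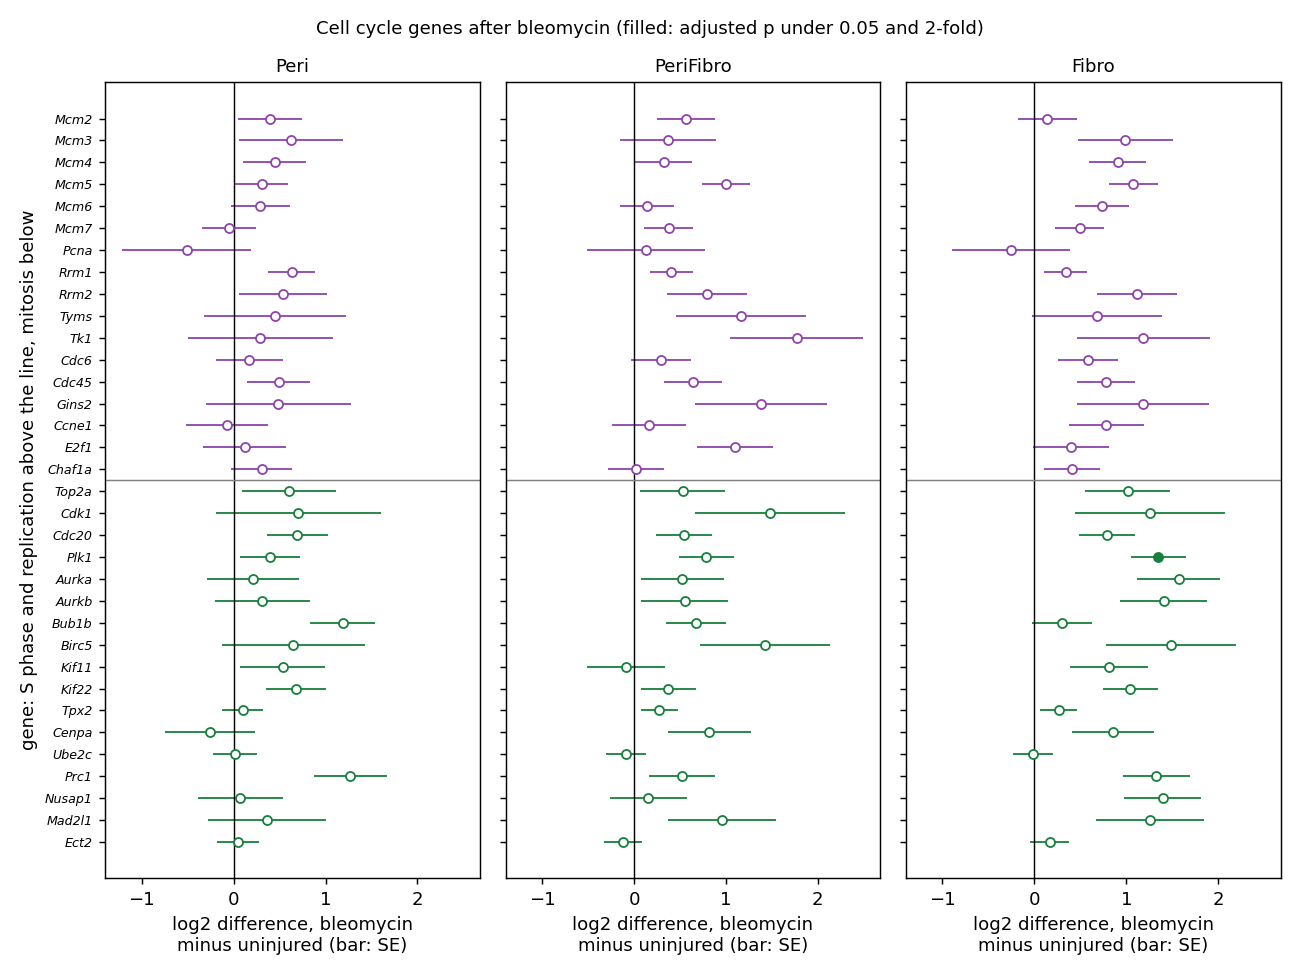
Log2 difference, bleomycin minus uninjured, of the 34 genes (rows) in Peri, PeriFibro and Fibro cells (panels), with standard errors as bars; a filled point marks a called gene. Most points lie right of 0 in every panel, and Plk1 in Fibro cells is the single filled point.

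By the adjusted test 0 of 34 genes were called in Peri cells (0.595% of all genes), 0 in PeriFibro cells (0.129%) and 1, higher, in Fibro cells (1.6%, of which 0.571% higher). At an unadjusted p under 0.05, limma gave 3, 4 and 12 of the 34, where 7.01%, 6.56% and 12.6% of all genes passed. All arrays of the bleomycin group lay above all uninjured arrays for 16 genes of Peri cells and for 18 genes each of PeriFibro and Fibro cells, where 23%, 11.6% and 9.56% of all genes did. The reverse held for 1 gene of Peri cells and 0 of the other populations, where 19.2%, 15.8% and 12.9% of all genes did. With 2 and 3 arrays a group, non-overlap is common: the Peri comparison has 2 arrays on each side, and its background share is the highest. The non-overlapping genes of PeriFibro and Fibro cells include Tpx2, which was not above background on any uninjured array.

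The called gene was Plk1, which encodes a kinase that drives entry into mitosis and spindle assembly. Plk1 had log2 levels of 6.50, 7.28 and 6.84 on the bleomycin Fibro arrays, against 5.90 and 5.15 on the uninjured ones. Every bleomycin array was above both uninjured arrays, a difference of 1.35 ± 0.30 (SE, n = 3 and 2), or 2.55-fold (adjusted p = 0.0472, limma). In Fibro cells the call was lost under 11 of 13 alternatives and in 13 of the 14 fits that left out a single array (0.97 to 1.72). The difference was 0.77 without the 3 arrays that stood apart, with 1 uninjured array left. In PeriFibro cells Plk1 was at 6.74, 7.01 and 6.57 after bleomycin, against 5.76 and 6.22 in uninjured cells, again without overlap (0.79 ± 0.30, adjusted p = 0.605 in limma), and in Peri cells at 6.50 and 6.68 after, against 6.10 and 6.30 in uninjured cells (0.40 ± 0.32, adjusted p = 0.98). The response was not shown to differ between populations. Peri minus Fibro was -0.95 with a 95% interval from -1.92 to 0.01 (adjusted p = 0.552, limma), and PeriFibro minus Fibro was -0.56 (-1.48 to 0.36, adjusted p = 0.997). For none of the 34 genes was a difference in response called, where 0% (Peri minus PeriFibro), 0.482% (Peri minus Fibro) and 0.129% (PeriFibro minus Fibro) of all genes were, and 0 passed an unadjusted p under 0.05 in any of the 3 pairs of populations, where 5.24%, 9.25% and 3.35% of all genes did.

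Mcm5, a helicase subunit, had log2 levels of 9.15, 9.40 and 9.40 in bleomycin PeriFibro cells, against 7.97 and 8.66 in uninjured ones, and 9.17, 9.66 and 9.39 in bleomycin Fibro cells, against 8.14 and 8.52. The groups did not overlap in either population, with differences of 1.00 ± 0.26 and 1.08 ± 0.26, and adjusted p of 0.254 and 0.0797 in limma. In Peri cells they overlapped, at 9.52 to 9.71 after bleomycin, against 9.09 to 9.53 in uninjured cells (0.30 ± 0.29). Mcm2 had levels of 7.91 and 8.12 in bleomycin Peri cells, 7.86, 8.23 and 7.54 in PeriFibro and 7.30, 7.66 and 7.31 in Fibro cells, against 8.18 and 7.06, 7.18 and 7.44, and 7.36 and 7.21 in the uninjured groups. Only in PeriFibro cells did its groups not overlap. E2f1, the transcription factor of the G1 to S transition, was at 7.15, 7.88 and 8.02 in bleomycin PeriFibro cells, against 6.17 and 7.00 in uninjured ones (1.10 ± 0.41, adjusted p = 0.607 in limma). In Fibro cells E2f1 reached 8.05, 8.96 and 8.05 after bleomycin, against 7.48 and 8.43 in uninjured cells, which overlap.

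Rrm1, the large subunit of ribonucleotide reductase, was at 8.02 and 8.22 in bleomycin Peri cells, against 7.60 and 7.37 in uninjured ones, and the groups did not overlap in PeriFibro cells either. Other genes of nucleotide supply varied widely between arrays, with pooled standard deviations within groups of 0.90 for Tyms (thymidylate synthase) and 0.92 for Tk1, against 0.21 for Rrm1. Tk1, thymidine kinase, had levels of 6.86, 7.30 and 8.78 in bleomycin PeriFibro cells, against 5.65 and 6.10. The difference of 1.77 was the largest of the 34 in that population, with a standard error of 0.72. Pcna, which encodes the sliding clamp of DNA polymerase, did not move with the rest. It was at 5.27 and 5.54 in bleomycin Peri cells, 5.10, 4.80 and 7.16 in PeriFibro and 4.97, 6.50 and 6.29 in Fibro cells, against 5.77 and 6.06, 5.27 and 5.85, and 5.77 and 6.57 in the uninjured groups. Its only probe spread by a pooled standard deviation of 0.81 within groups. In Peri cells both bleomycin arrays lay below both uninjured arrays, the single gene that did so, and in PeriFibro and Fibro cells the groups overlapped. Ccne1, which encodes cyclin E1, was above background on 7 of 14 arrays, highest at 5.86 on the second Fibro bleomycin array and 5.52 on the first uninjured Peri array.

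Mitotic genes showed the same lean. Prc1, which bundles microtubules at the spindle midzone, had log2 levels of 8.26 and 8.62 in bleomycin Peri cells, against 7.55 and 6.79 in uninjured ones, and of 8.0, 8.61 and 7.98 in bleomycin Fibro cells, against 7.04 and 6.70. Its differences were 1.27 ± 0.39 (adjusted p = 0.324) and 1.33 ± 0.36 (adjusted p = 0.11, both limma), without overlap. Bub1b in Peri cells was at 7.37 and 7.93 after bleomycin, against 6.88 and 6.05 in uninjured cells (1.19 ± 0.36, adjusted p = 0.299 in limma). After bleomycin the Bub1b difference between Peri and Fibro cells was -0.25 (95% interval -0.96 to 0.47). Its response was not shown to differ between these populations. Aurka, a centrosomal kinase, had the largest difference in Fibro cells, at 5.79, 7.44 and 6.35 after bleomycin, against 5.32 and 4.59 in uninjured cells (1.57 ± 0.45, adjusted p = 0.133 in limma). The lower uninjured value was not above background. Top2a, which encodes the topoisomerase that untangles replicated chromosomes, was at 6.64 and 6.07 in bleomycin Peri cells, 5.93, 5.93 and 4.50 in PeriFibro and 6.07, 5.0 and 5.68 in Fibro cells, against 6.18 and 5.34, 4.84 and 5.01, and 4.36 and 4.78 in the uninjured groups. Neither uninjured Fibro array was above background for Top2a, so its level there was at least 1.74-fold higher after bleomycin by the lowest detected signal (adjusted p = 0.397, limma, not called).

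Single arrays carried much of the spread. The mean deviation of the 34 genes from their own means over the 14 arrays was 0.86 on the second Fibro bleomycin array, 0.44 on the third PeriFibro bleomycin array and between -0.00 and 0.25 on the other 6 bleomycin arrays. On the 6 uninjured arrays it ranged from -0.62 to 0.04. The uninjured value of 0.04, from the first Peri array, exceeded those of 2 bleomycin arrays, one of PeriFibro and one of Fibro cells. The second Fibro bleomycin array held the highest value for 17 of the 34 genes, where it held the highest for 11.1% of all genes. The second uninjured Fibro array held the lowest for 12, where it held the lowest for 11.4% of all genes.

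**Figure D3:**
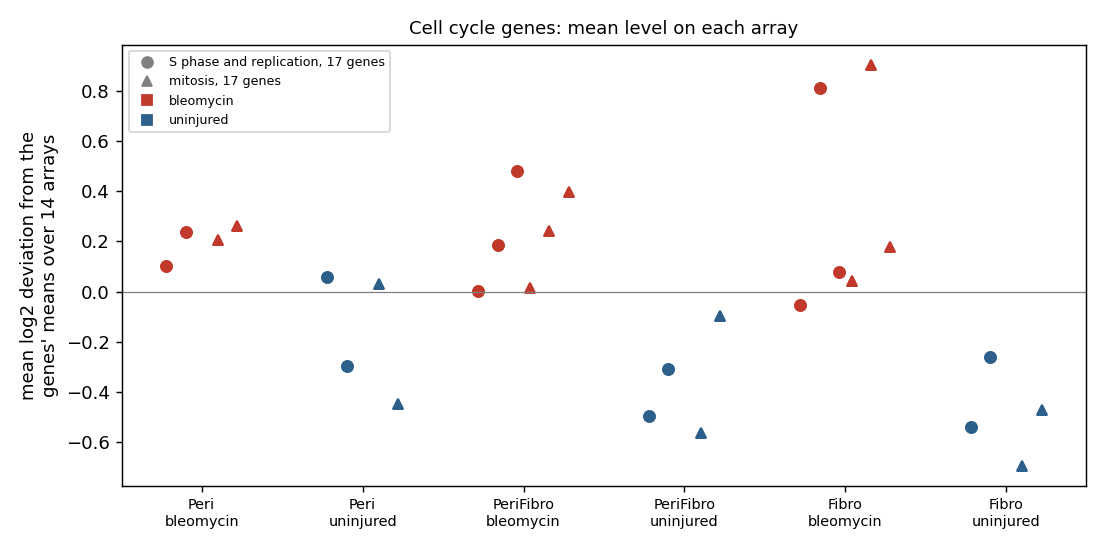
Mean log2 deviation (vertical axis) of the 17 S phase genes (circles) and 17 mitotic genes (triangles) from each gene's mean over 14 arrays, for every array, bleomycin in red and uninjured in blue. The second Fibro bleomycin array stands highest at 0.81 and 0.90, and the first uninjured Fibro array lowest at -0.54 and -0.69. Some arrays between them change order between the gene groups.

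Cdk1, the kinase that drives mitosis, shows this dependence most. It had log2 levels of 6.01 and 5.75 in bleomycin Peri cells, 6.39, 6.57 and 7.83 in PeriFibro and 5.47, 8.83 and 5.94 in Fibro cells, against 5.77 and 4.59 (not above background), 5.52 and 5.39, and 5.21 and 5.76 in the uninjured groups. The PeriFibro groups did not overlap, while in Fibro cells only the second bleomycin array stood out. The Fibro difference of 1.26 had a standard error of 0.82. Birc5, which encodes survivin of the chromosomal passenger complex, was at 7.37, 9.70 and 7.85 in bleomycin Fibro cells, against 5.97 and 7.66 in uninjured ones. Gins2, a subunit of the replicative helicase complex, was at 6.41, 8.76 and 6.77, against 5.14 and 7.13. For both genes the second uninjured Fibro array lay above at least 1 bleomycin array. Tyms, Tk1, Gins2, Birc5 and Cdk1 were high on the third PeriFibro and the second Fibro bleomycin arrays, and Gins2, Tyms, Birc5 and Pcna also on the second uninjured Fibro array. Top2a and Mcm3 were not: Top2a on the third PeriFibro array was at 4.50, below background, and Mcm3 was at 4.95 there, the lowest of that group.

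**Figure D4:**
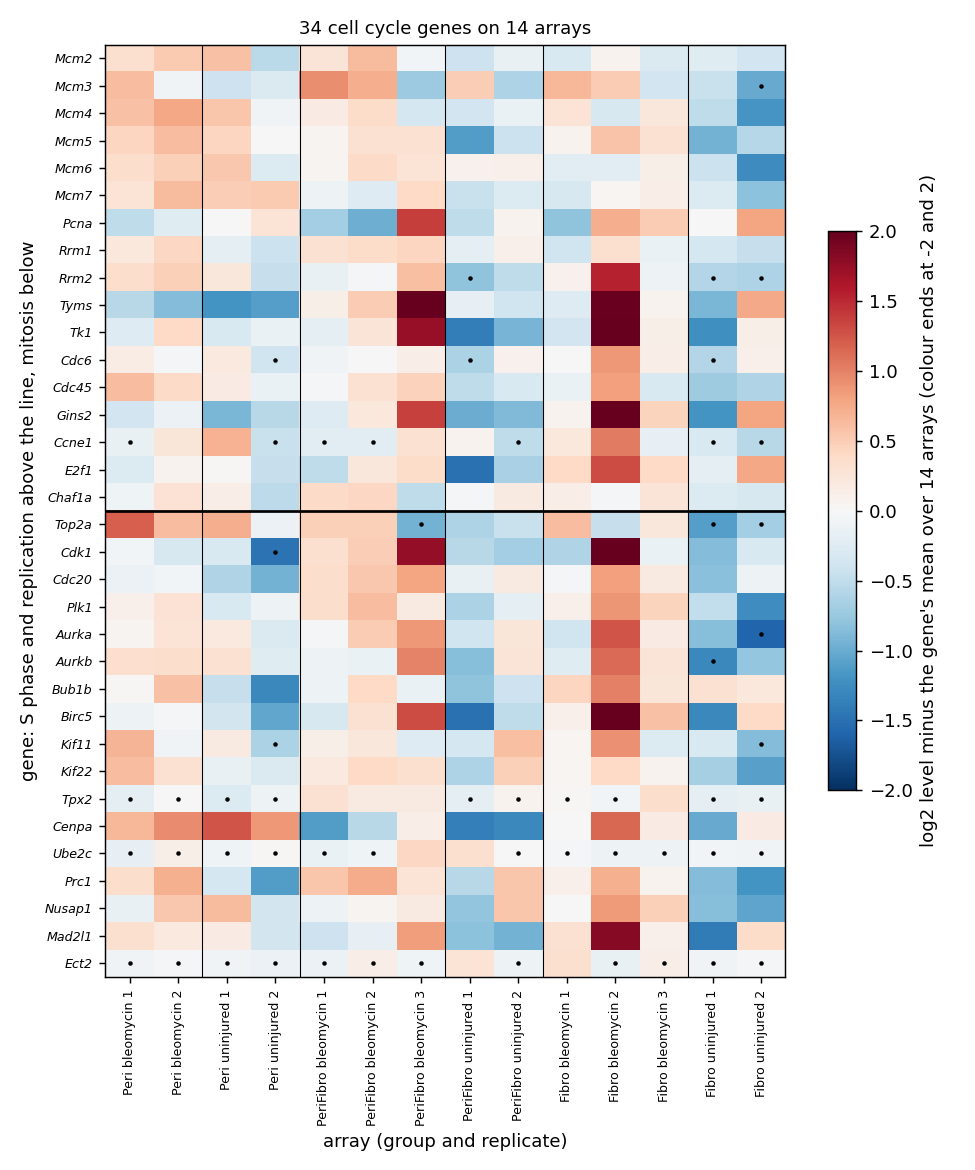
Log2 level minus the gene's mean over 14 arrays (colour, ending at -2 and 2) for 34 genes (rows, S phase above the line) on 14 arrays (columns); black points mark values not above background. The second Fibro bleomycin column is red for most genes, highest of all arrays for 17.

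Without these 3 arrays (the third PeriFibro bleomycin, the second Fibro bleomycin and the second uninjured Fibro array, chosen after seeing the data) the median bleomycin difference was 0.38 in Peri cells, 0.51 in PeriFibro cells and 0.62 in Fibro cells. Without the second Fibro bleomycin array alone it was 0.48 in Fibro cells. With the 3 arrays left out the uninjured Fibro group held 1 array, so only effect sizes are given for Fibro cells from that fit. The 3 arrays were chosen from the levels of these same genes, Gins2 among them. The median pooled standard deviation within groups was 0.45 for the 34 genes and 0.37 for all genes. Probes followed each other closely for Birc5, Gins2 and Tyms, genes with large array differences. Pearson correlations over the 14 arrays were 0.97 to 0.98 for Birc5, 0.94 to 0.95 for Gins2 and 0.96 for Tyms. Probes followed each other poorly for Mcm7 (0.04) and Top2a (0.33), and for some probe pairs of Mcm6 (lowest 0.18) and Cdc20 (lowest 0.32). Of the 34 genes 13 had more than 1 kept probe, and 14 also had a probe that passed on no array.

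Markers of some other cells differed with injury, in directions that varied between lists and populations. The mean log2 level of 10 macrophage genes was 8.95 to 9.10 in bleomycin Peri cells, against 7.21 to 7.43 in uninjured ones, 8.52 to 9.54 in PeriFibro, against 7.05 to 8.10, and 10.58 to 11.04 in Fibro cells, against 9.19 to 9.48. Of the 10 macrophage genes 3 were called higher after bleomycin in Peri cells, 0 in PeriFibro cells and 1 in Fibro cells. On the second Fibro bleomycin array the macrophage level was 11.04 and the pan-leukocyte level 11.12, against 10.58 to 10.89 and 11.45 to 11.50 on the other bleomycin Fibro arrays. It also held lower levels of the T and NK cell genes (7.45, against 9.0 and 9.06), the neutrophil genes (7.32, against 9.51 and 8.51), the B cell genes (5.87, against 6.90 and 7.77) and the endothelial genes (10.51, against 11.06 and 11.10), and a higher level of the fibroblast genes (7.15, against 6.17 and 6.61). On the third PeriFibro bleomycin array the fibroblast level was 8.01, against 6.72 and 6.26 on the other PeriFibro bleomycin arrays, and the endothelial level 11.58, against 12.35 and 12.05. The part of these cells in the levels of the cell cycle genes was not tested.

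Other genes of the cycle, from lists written with earlier results of these data known, also differed between the populations in part. Of 33 tested genes of origin licensing and the replication fork 6 were called higher in uninjured Peri than PeriFibro cells and 0 lower, and again 6 and 0 against Fibro cells, beside the 24.8% and 21.7% of all genes called in either direction. Cdt1, which loads the helicase onto origins, had log2 levels of 9.80 and 10.03 in uninjured Peri cells, 6.24 and 7.15 in PeriFibro and 7.53 and 7.80 in Fibro cells. Peri cells were 9.34-fold above PeriFibro (3.22 ± 0.34, adjusted p = 4.14e-05, limma) and 4.77-fold above Fibro cells. Dbf4 and Cdc7, the subunits of the kinase that fires origins, were higher too, by 1.81 and 1.77 against PeriFibro and by 2.34 and 2.22 against Fibro cells. Against PeriFibro the Dbf4 call was lost under 3 of 13 alternatives and the Cdc7 call under 2. Against Fibro cells both were lost with the deposited log2 values. The Cdc7 calls were also lost in 4 (PeriFibro) and 2 (Fibro) of the 14 fits without a single array. After bleomycin Cdt1 stayed called in Peri cells, at 2.24 above PeriFibro and 1.42 above Fibro cells.

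Of 21 tested cyclins, CDKs and proliferation factors 3 were called higher and 1 lower in uninjured Peri cells, against either PeriFibro or Fibro cells, where 24.8% and 21.7% of all genes were called. Ccnd1, which encodes cyclin D1 of the mitogen-driven G1 phase, was at 9.46 and 9.35 in uninjured Peri cells, against 12.65 and 12.57 in PeriFibro and 12.33 and 11.52 in Fibro cells. It was lower in Peri cells by a log2 difference of -3.20 ± 0.39 and -2.52 ± 0.39 (adjusted p = 9.62e-05 and 0.000845, limma), and after bleomycin by -2.70 and -1.65. E2f2, an E2F family transcription factor, was at 10.32 and 10.57 in uninjured Peri cells, against 6.48 and 6.83 in PeriFibro and 8.37 and 8.70 in Fibro cells. It was 13.8-fold higher than in PeriFibro (adjusted p = 1.05e-05, limma) and 3.75-fold higher than in Fibro cells, with no overlap. It was also lower in PeriFibro than Fibro cells, without injury (-1.88, adjusted p = 0.00436, limma) and after bleomycin (-1.30). Myc, which encodes a growth-promoting transcription factor, was above background on every Peri array and on no uninjured PeriFibro array, and was at least 1.58-fold higher in uninjured Peri cells (adjusted p = 0.0104, limma). Foxm1 lay between 5.05 and 6.06 on all arrays, Mybl2 between 4.36 and 5.60 and Ccnd2 between 10.21 and 11.24, and none of these 3 was called in any comparison.

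Among 30 tested genes of the spindle, kinetochore and cytokinesis the calls ran both ways, with 1 higher and 5 lower in uninjured Peri than PeriFibro cells and 4 higher and 2 lower against Fibro cells, beside the same 24.8% and 21.7% of all genes. Ncaph, which encodes a condensin subunit, was at 6.52 and 6.32 in uninjured Peri cells, against 8.74 and 8.46 in PeriFibro and 8.24 and 6.47 in Fibro cells. It was called only against PeriFibro (-2.18 ± 0.48, adjusted p = 0.00503, limma), and the Fibro arrays lay far apart. Ndc80, a subunit of the kinetochore complex that binds microtubules, was at 6.64 and 5.96 in uninjured Peri cells, against 4.57 (not above background) and 5.17 in PeriFibro cells (1.43 ± 0.31, adjusted p = 0.0043, limma), and was at least 2.86-fold above Fibro cells, where it was not above background on any uninjured array. Anln, which encodes the cytokinesis scaffold anillin, was lower in uninjured Peri cells than in both other populations (-1.73 and -1.74). Kif23, a midzone kinesin, was lower than in PeriFibro cells by its brighter probe (-1.68), but not by the mean of its probes (0.74). After bleomycin 1 gene was called higher (Incenp, of the chromosomal passenger complex, 1.01, lost under 8 of 13 alternatives and in 4 of the 14 fits without a single array) and 1 lower (Kif23, -2.41, and 0.18 by the mean of its probes) in Peri than PeriFibro cells, and 0 in the other pairs.

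**Figure D5:**
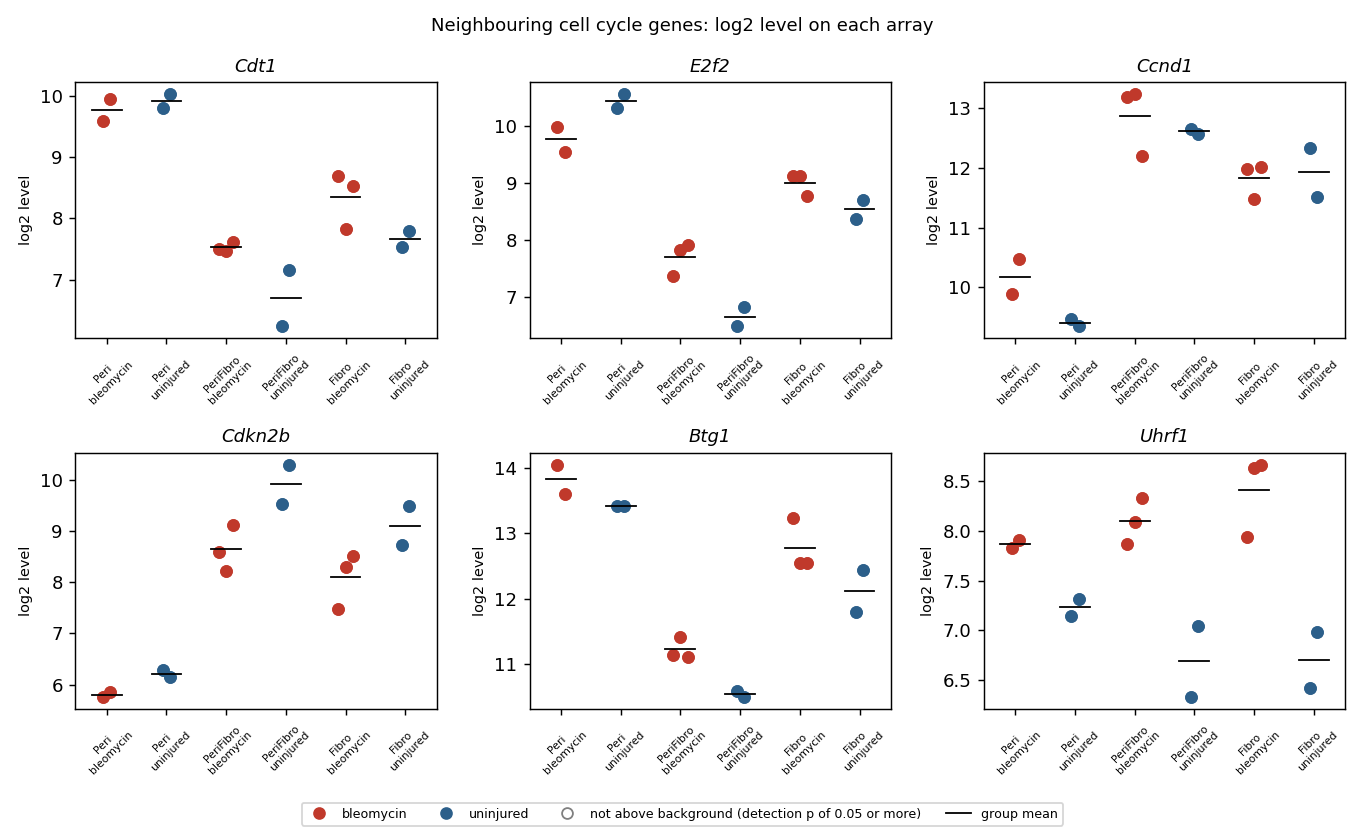
Log2 level (vertical axes, each with its own range) on each array of 6 cell cycle genes outside the 34, drawn as for the called genes. Cdt1, E2f2 and Btg1 are highest in Peri cells and Ccnd1 and Cdkn2b lowest, while the Uhrf1 arrays lie higher after bleomycin in all 3 populations and the gene was called in Fibro cells.

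CDK inhibitors and quiescence genes moved in both directions: of 19 tested, 2 were called higher and 3 lower in uninjured Peri than PeriFibro cells, and 4 and 3 against Fibro cells, again beside 24.8% and 21.7% of all genes. Cdkn2b, which encodes the CDK4 inhibitor p15, was at 6.28 and 6.15 in uninjured Peri cells, against 9.53 and 10.29 in PeriFibro and 8.72 and 9.48 in Fibro cells (-3.70 and -2.88). Cdkn1c, which encodes p57, was lower as well (-2.41 and -2.56). Cdkn2d, which encodes p19 of the same family as p15, was higher in Peri cells (2.17 and 1.77), as was the antiproliferative gene Btg1 (2.87 and 1.29). Cdkn1b, which encodes p27, was called only against Fibro cells (1.43, adjusted p = 0.0253, limma), a call lost under 7 of 13 alternatives and in 3 of the 14 fits without a single array. Pkmyt1, which encodes a kinase that holds Cdk1 inactive, was not above background on any Peri array, and was at least 4.03-fold lower in uninjured Peri than PeriFibro cells (adjusted p = 3.08e-05, limma). By the mean of its probes Pkmyt1 was not called in that pair, nor without background correction or with the deposited values, with differences down to -0.15 and adjusted p up to 0.714 in limma.

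After bleomycin 2 of the 103 other cycle genes tested were called, both higher in Fibro cells, where 0.571% of all genes were called higher. Uhrf1, which keeps DNA methylation through replication, was at 7.94, 8.63 and 8.67 after bleomycin, against 6.42 and 6.98 in uninjured cells (1.71 ± 0.30, adjusted p = 0.0149, limma). In the other populations the Uhrf1 groups did not overlap either, at 7.87, 8.09 and 8.33 in bleomycin PeriFibro cells, against 6.33 and 7.05 in uninjured ones (1.41 ± 0.30, adjusted p = 0.14 in limma), and at 7.83 and 7.91 in bleomycin Peri cells, against 7.15 and 7.32 (0.63 ± 0.33, adjusted p = 0.811). Espl1, which encodes separase, was at 6.65, 7.22 and 6.46, against 5.61 and 4.87 (1.54 ± 0.30, adjusted p = 0.0244, limma). Uhrf1 kept its call under 10 of 13 alternatives and Espl1 under 5. Cdkn1a, which encodes the p53-induced CDK inhibitor p21, was at 11.76 and 11.10 in bleomycin Peri cells, against 10.22 and 9.77 in uninjured ones, at 11.80, 12.26 and 11.06 in PeriFibro, against 10.67 and 10.30, and at 12.09, 11.03 and 11.64 in Fibro cells, against 10.68 and 10.22. Bleomycin and uninjured arrays did not overlap in any population, with differences of 1.44, 1.22 and 1.14, and adjusted p of 0.306, 0.465 and 0.224 in limma, so Cdkn1a passed the test in none.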

How the data were processed

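RNA was hybridised to Illumina MouseWG-6 v2.0 arrays, with 1 colour per array. The authors deposited 1 unnormalized intensity per probe and array for 45281 probes, with a detection p-value that ranks each probe against negative controls, and no earlier step is given in the sources used here. The log2 values the authors deposited were, by their methods, variance-stabilized and quantile-normalized with lumi (no version stated). They served as an alternative, as did the 2-fold and adjusted p threshold as the call rule. The authors' methods remove outlier samples that they do not name. Whether these are among the 14 arrays analysed here is not given in the sources used here, and the arrays exceed the places on the chips those methods describe.

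Intensities were background-corrected and quantile-normalized with neqc (limma 3.58.1, R 4.3.3; background from the detection p-values, offset 16). Probes detected at p under 0.05 on at least 2 arrays and carrying 1 symbol entered, and the kept probe with the highest mean stood for a gene. A single limma model over the 6 groups, moderated by eBayes with 8 residual and 3.43 prior degrees of freedom, gave 9 comparisons and the 3 differences of response, all two-sided. Where a group was not above background on any array, a fold is a lower bound measured from the lowest detected signal. The model was checked on simulated data. The number of arrays limits the precision. The 45 genes and all lists were chosen with earlier results of these data known. Values on every array are given for called genes (up to 6 a comparison) and for Top2a, Cdk1, Mcm2, Pcna, Ccne1 and E2f1, with up to 3 called genes a list and comparison and fixed regulators from the other lists. Genes named beyond these were chosen after their values were seen. Promoters were printed for called genes with the most calls, ties included. Mcm4 has no entry in the RefSeq table used. Alternatives were other background correction, scaling, filters, probe rules, offsets and variance models, a replicate block, and leaving out arrays. The alternative by adjusted p alone drops only the fold rule, so no call can be lost under it. The mean of a gene's probes leaves the difference of a gene with 1 kept probe unchanged.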

Additional observations from a re-analysis of the deposited data

How the results depend on the processing

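The positive count of 27 genes after bleomycin stayed between 20 and 29 when single arrays were left out. It was between 26 and 28 under the other alternatives, but the filters also changed the number of genes tested. The positive share fell from 79.4% (27 of 34) to 65.1% (28 of 43) with no detection filter. With the stricter filter it was 83.9% (26 of 31). Counts of called genes moved more. For uninjured Peri against Fibro (4) the count was 0 without background correction, with median scaling, with the deposited log2 values and with only the groups compared, 1 with no detection filter, with the mean of a gene's probes and with offset 50, and 2 with array weights. For bleomycin against uninjured Fibro (1) it was 0 without background correction, with median scaling, with deposited values, with no filter or the stricter one and with offset 50. It was also 0 with only the groups compared, with array weights and with the trend and robust variance. For bleomycin Peri against PeriFibro (0) it was 1 with the stricter filter and with the trend and robust variance, and 2 (Cenpa and Tyms) with array weights and without the 3 arrays. For uninjured Peri against PeriFibro (1) it was 3 by adjusted p alone. Leaving out single arrays gave 1 to 2 calls in uninjured Peri against PeriFibro, 1 to 5 in uninjured Peri against Fibro, 0 to 1 in bleomycin Peri against PeriFibro and in Fibro bleomycin, and 0 in the other comparisons. The cause of these moves was not tested. The median bleomycin difference in Fibro cells was 0.21 on the deposited scale, which compresses low signals by its construction, and 0.09 and 0.11 in Peri and PeriFibro cells. Under the mean of a gene's probes Kif23 reversed to 0.74 (uninjured) and 0.18 (bleomycin) in Peri against PeriFibro, and Pkmyt1 to 0.18 in uninjured Peri against Fibro. Of 1728 recomputed values for 64 gene comparisons 1435 kept their side of the threshold and direction, 290 lost the call and 3 reversed. Median scaling moved the median of all genes after bleomycin to -0.12 in PeriFibro and -0.11 in Fibro cells. Deviations of same-numbered arrays correlated between -0.41 and 0.66, the highest between bleomycin and uninjured Fibro arrays. With 2 or 3 arrays a group these values cannot show whether replicate numbers pair the samples. With the replicate block 1 gene (Cenpa) was called in bleomycin Peri against PeriFibro and 0 in Fibro bleomycin, and 3 in uninjured Peri against Fibro. A slide block was not run, since the files do not identify slides. Groups of 2 or 3 arrays limit the precision, and 11 of the 45 genes gave no value.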
